A study of Mus musculus with 6 samples.

Results

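Foxa1, Foxa2, Foxa3, Onecut1, Onecut2 and Prox1 encode transcription factors that set up and maintain the hepatocyte state. They were taken as every probe set whose platform annotation names 1 of these 6 genes and no other gene. This gave 11 of the 45101 probe sets in the table: 1 each for Foxa1 (1418496_at), Foxa2 (1422833_at) and Foxa3 (1431900_a_at), 2 for Onecut1 (1421447_at and 1450252_at), 3 for Onecut2 (1440005_at, 1460044_at and 1444980_at) and 3 for Prox1 (1421336_at, 1437894_at and 1457432_at). The arrays measured RNA of whole liver, 18 hours after partial hepatectomy, the operation that removes most of the liver so that the remnant regrows. Cre plus livers (3 arrays, A, B and C) came from C57BL/6 mice with floxed Socs3 alleles and a Cre recombinase transgene driven by the albumin promoter. This Cre is meant to delete Socs3 in hepatocytes, and its action in other liver cells was not tested. Cre minus livers (3 arrays, likewise A, B and C) came from littermates with the same floxed alleles, no Cre and the same surgery. No array came from a liver before surgery, so the effect of the operation was not measured. No mouse carried Cre without floxed Socs3, so Cre alone and loss of Socs3 cannot be told apart. The labels give no age for the mice that were operated on. Values of single arrays are listed in the order A, B, C throughout. Below, Cre plus and Cre minus livers stand for these arrays, since the labels do not say that each is a separate mouse.

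The 3 FOXA proteins bind DNA through a forkhead domain. They are known as pioneer factors, which engage closed chromatin in the early liver and let other regulators bind, and they remain active in adult hepatocytes. Onecut proteins bind through a cut domain and a homeodomain, and in the mouse Onecut1 (also called HNF-6) acts in both hepatocytes and bile ducts and is known to act on the Foxa2 promoter. Prox1 is a homeobox protein needed in the mouse for hepatoblasts to spread during liver development, represses bile acid synthesis together with nuclear receptors, and also specifies lymphatic endothelium.

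The letters upstream of the start sites are shown because these factors are known to regulate one another. RefSeq windows of GRCm38.p6 were at hand for 5 of the 6 genes, all but Onecut2, 8 start sites in all, and the 250 bases before each were searched on both strands. The words searched were TGTTTAC or TATTTAC or TGTTTGC or TATTTGC for FOXA, ATTGAT for Onecut and TTCNNNGAA for STAT factors. In the stretches below, given 5′ to 3′ on the gene's strand, the capitals mark the matching word.
Foxa1, FOXA word read on the opposite strand, chr12:57546235-57546264, minus strand: ttatactgctttGTAAACAaagtgagggcc
Foxa2, Onecut word, chr2:148047165-148047194, minus strand: acaaggcccattATTGATtttttttctcct
Prox1, FOXA word, chr1:190169629-190169658, minus strand: cccggctttcccTATTTGCttgctgtttgc
The Foxa1 word begins 141 bases before its start site. For Foxa2 the word begins 213 bases before the most upstream of its listed start sites, and its other windows held no word. The Prox1 word begins 131 bases before the second of its 2 listed start sites, and another FOXA word, TGTTTGC, begins 120 bases before the same site. No word was found in the windows of Foxa3 and Onecut1, and no STAT word in any of the 8. Among all 32841 windows of this length, 11.9% held a FOXA word, 6.72% an Onecut word and 7.02% a STAT word. A match describes letters and does not show binding.

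All 6 genes were measured above the filter in every liver, and none passed the test between genotypes. Levels are deposited log2 values, in which a step of 1 is a doubling of signal, and a probe set was kept for testing where its value was over 4 in at least 3 of the 6 arrays. All 11 probe sets passed, with values between 5.82 and 9.07 in single arrays. Each gene was read from its kept probe set with the highest mean. Of the 6 genes, 0 passed an adjusted p under 0.05 with limma, in which 0.0234% of the 8554 genes tested passed. At an unadjusted p under 0.05, 1 member was lower (Foxa1) and 0 were higher, where 14.8% of all genes tested met it in either direction, 8.21% as lower and 6.62% as higher. The log2 fold change, Cre plus minus Cre minus, was below 0 for 5 of the 6 genes, against 53.5% of all genes tested, and its median was -0.09, against -0.01 over all genes tested.

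In 3 of the 6 genes the Cre plus and Cre minus values did not overlap, namely Foxa1 and Foxa2 (lower) and Prox1 (higher), where 21.2% of all genes tested showed no overlap (11.9% lower and 9.21% higher). The exact two-sided permutation test gave p = 0.1 for each of these 3, the smallest value that 3 arrays against 3 can give. Of the 11 probe sets, 4 showed no overlap, against 19.8% of the 15563 kept probe sets. The fit over these probe sets gave 0 members past an adjusted p under 0.05, in which 0.0129% passed. At an unadjusted p under 0.05 it listed 1 member probe set, that of Foxa1, against 13.3% of kept probe sets.

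**Figure D1:**
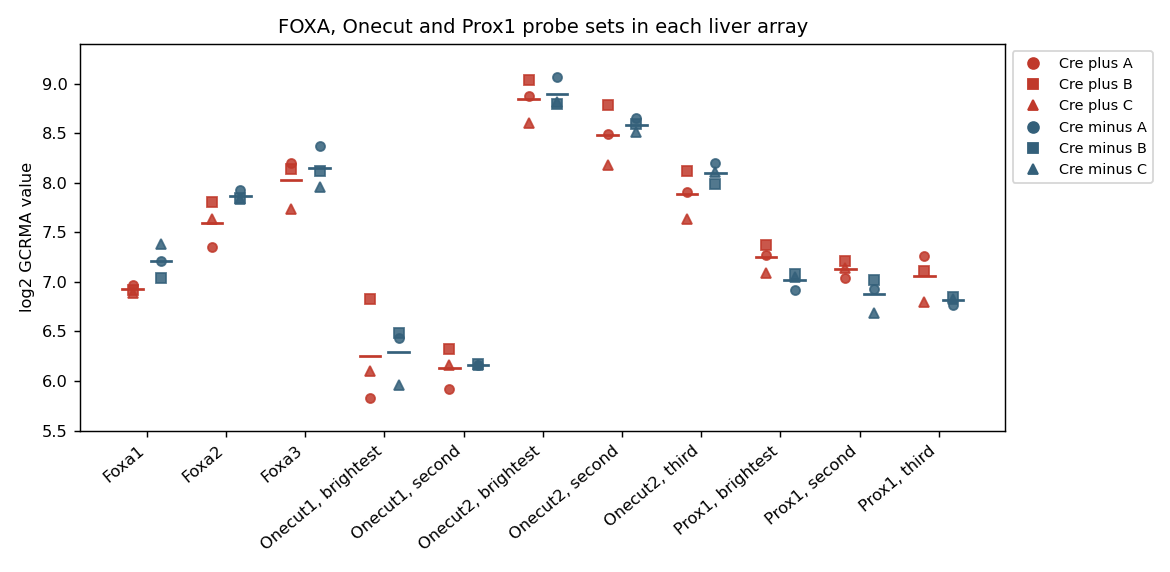
Log2 GCRMA value (vertical axis) of each of the 11 probe sets in each array, Cre plus left of Cre minus, with bars at the group means. Points of Foxa1, Foxa2 and the 2 brighter Prox1 probe sets do not overlap between genotypes. Levels of different probe sets are not comparable.

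For Foxa1 and Foxa2 the highest Cre plus value lay under the lowest Cre minus value, while Foxa3 overlapped. Foxa1 was at 6.97, 6.92 and 6.89 in the Cre plus livers, against 7.21, 7.04 and 7.38 in the Cre minus livers. The 3 Cre plus values lay close together and the Cre minus values were spread more widely, with means of 6.93 ± 0.04 and 7.21 ± 0.17 (SD, n = 3 each). The log2 fold change was -0.29 ± 0.10 (SE) with limma's adjusted p = 0.276, which puts Cre plus at 82.1% of Cre minus (95% interval 69.6% to 96.7%). The gap between the lowest Cre minus and the highest Cre plus value was 0.07.

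Foxa2, which in the mouse liver acts on genes of bile acid transport and lipid metabolism, was at 7.35, 7.81 and 7.63 in the Cre plus livers, against 7.92, 7.84 and 7.84 in the Cre minus livers. Here the Cre minus livers agreed closely and Cre plus A was the lowest, and Cre plus B came within 0.03 of the Cre minus range. The group means were 7.60 ± 0.23 and 7.87 ± 0.05 (SD, n = 3 each), the log2 fold change was -0.27 ± 0.12 and the adjusted p was 0.368. The signal in Cre plus was 83.0% of that in Cre minus, with an interval of 67.6% to 102%, so a difference of 0 was not outside it. Leaving out Cre plus A gave -0.15, and leaving out Cre plus B gave -0.37.

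Foxa3, the FOXA gene that in the mouse contributes to glucose homeostasis during fasting, was at 8.20, 8.14 and 7.74 in the Cre plus livers, against 8.37, 8.12 and 7.96 in the Cre minus livers. Livers with and without Cre overlapped, and the highest and lowest values within each genotype were further apart than the means of the 2 genotypes. The log2 fold change was -0.13 ± 0.16 (adjusted p = 0.748), and the interval for the Cre plus signal ran from 69.5% to 121% of the Cre minus signal. Without Cre plus C it was 0.02.

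On its brightest probe set each Onecut gene differed between genotypes by less than the SD of either genotype. On its brighter probe set Onecut1 was at 5.82, 6.82 and 6.10 in the Cre plus livers, against 6.43, 6.48 and 5.96 in the Cre minus livers. Cre plus livers included both the lowest and the highest value of all 6 arrays. The log2 fold change was -0.04 ± 0.28 (adjusted p = 0.966), and the interval of 59.7% to 158% of the Cre minus signal is the widest of the 6 genes. The value depended on single arrays, becoming 0.17 when Cre plus A was left out and -0.33 when Cre plus B was.

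The other Onecut1 probe set was at 5.92, 6.32 and 6.16 in the Cre plus livers, against 6.17, 6.17 and 6.16 in the Cre minus livers. The 3 Cre minus livers were nearly identical on it, and Cre plus A was again the lowest and Cre plus B the highest. Its log2 fold change was -0.03 ± 0.11, with an adjusted p = 0.928 over all kept probe sets and an interval of 0.816-fold to 1.18-fold. Across the 6 arrays both Onecut1 probe sets had a Pearson r of 0.82, given as a description.

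Onecut2, a paralogue with an overlapping role in early mouse liver and bile duct development, was at 8.88, 9.04 and 8.61 on its brightest probe set in the Cre plus livers, against 9.07, 8.79 and 8.81 in the Cre minus livers. The genotypes overlapped, with a log2 fold change of -0.05 ± 0.14 (adjusted p = 0.898) and an interval of 76.7% to 122% of the Cre minus signal. On the second probe set the values were 8.50, 8.78 and 8.18 in the Cre plus livers, against 8.65, 8.59 and 8.51 in the Cre minus livers. On the third they were 7.91, 8.11 and 7.64 in the Cre plus livers, against 8.20, 7.99 and 8.11 in the Cre minus livers. In all 3 probe sets Cre plus B was the highest and Cre plus C the lowest of the Cre plus livers, and every pair of these probe sets had an r of 0.86 to 0.90 over the 6 arrays. The fit over all kept probe sets gave log2 fold changes of -0.10 ± 0.15 (adjusted p = 0.809) on the second and -0.21 ± 0.13 (adjusted p = 0.539) on the third, both with overlapping groups. The third moved to -0.09 when Cre plus C was left out and to -0.33 when Cre plus B was.

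Prox1 was the member with higher values in Cre plus, on each of its 3 probe sets. The brightest was at 7.27, 7.38 and 7.09 in the Cre plus livers, against 6.92, 7.08 and 7.05 in the Cre minus livers. The groups did not overlap, by a margin of 0.0087 between Cre plus C and Cre minus B, which is far less than the SD of either group (0.14 in Cre plus and 0.09 in Cre minus). The log2 fold change was 0.23 ± 0.09 with an adjusted p = 0.337, which puts Cre plus at 117% of Cre minus, with an interval of 100.0% to 138% whose log2 lower bound was just under 0.

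The second Prox1 probe set was at 7.04, 7.21 and 7.14 in the Cre plus livers, against 6.93, 7.02 and 6.69 in the Cre minus livers, without overlap. The third was at 7.26, 7.11 and 6.80 in the Cre plus livers, against 6.76, 6.85 and 6.82 in the Cre minus livers, where Cre plus C fell within the Cre minus range. Their log2 fold changes were 0.25 ± 0.10 (adjusted p = 0.382) and 0.24 ± 0.12 (adjusted p = 0.455) over all kept probe sets. The second was 0.15 without Cre minus C, and the third 0.14 when Cre plus A was left out or 0.37 when Cre plus C was. The 3 probe sets therefore gave nearly the same difference, although their arrays ranked differently, with r between them of 0.41 to 0.86. They read the same 6 RNA samples and are not independent replicates.

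**Figure D2:**
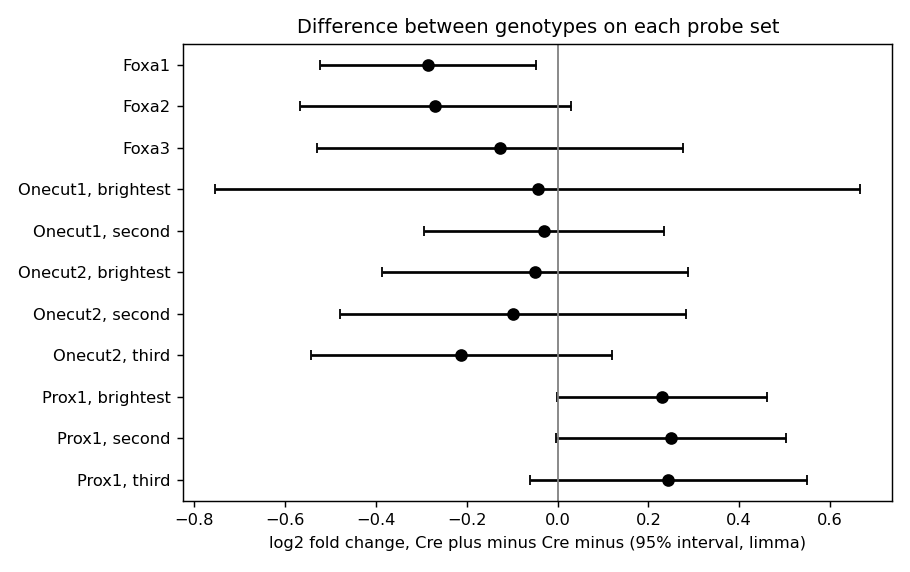
Log2 fold change of each of the 11 probe sets, Cre plus minus Cre minus (horizontal axis), with the 95% interval from limma's fit over all kept probe sets. The interval of Foxa1 alone lies wholly on one side of 0, and no probe set passed the adjusted threshold.

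Single arrays moved the members in different ways. In Foxa2, Onecut1, Onecut2 and Prox1 Cre plus B was the highest Cre plus liver, and in Foxa1, Foxa3, Onecut2 and Prox1 Cre plus C was the lowest. Over all genes tested Cre plus B correlated more closely with the Cre minus arrays (r of 0.991 to 0.993) than with Cre plus A and C (0.989 and 0.987). Without Cre plus B the differences of Foxa1, Foxa2 and Prox1 were -0.28, -0.37 and 0.16, with limma's adjusted p of 0.291, 0.165 and 0.405. In 5 of the 6 genes the SD was larger in Cre plus than in Cre minus, against 63.1% of all genes tested, and Foxa1 was the exception.

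**Figure D3:**
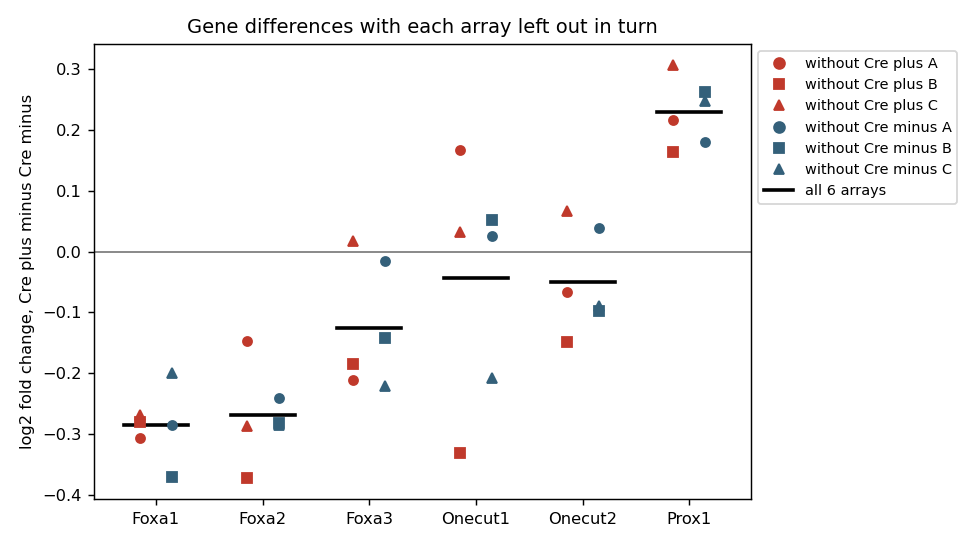
Log2 fold change of each gene, Cre plus minus Cre minus (vertical axis), with all 6 arrays (bar) and with each array left out in turn (points). Foxa1 and Foxa2 stayed below 0 and Prox1 above 0 throughout, and Foxa3, Onecut1 and Onecut2 crossed 0.

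The genes most like each member over the 6 arrays were found by Pearson r, among all genes tested. They were Abca8b, Dnaja1 and Pias2 for Foxa1, Catsper2, Pcbd1 and Ccnd2 for Foxa2, Sec14l4, Tomm22 and Golim4 for Foxa3, Thap1, Os9 and Rps6kb2 for Onecut1, Il18, Adtrp and Crot for Onecut2, and Cadm4, Pik3r4 and Elf3 for Prox1. The closest was Sec14l4 with Foxa3 at 0.999, and the least close Rps6kb2 with Onecut1 at 0.963. With 6 arrays such values are common, since 43 genes (Onecut1) to 190 genes (Foxa2) had an r over 0.9 to a member. Among the members the closest pair was Foxa3 and Onecut2 at 0.88, Foxa1 and Foxa2 stood at 0.50, and Foxa1 and Prox1 at -0.62.

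Among other forkhead genes, 10 of the 30 on the array were tested and 0 passed, with 4 higher and 6 lower values and a median of -0.02. Foxq1 was at 5.79, 5.93 and 5.87 in the Cre plus livers, against 5.95, 6.22 and 6.10 in the Cre minus livers, a log2 fold change of -0.22 ± 0.09 (adjusted p = 0.319) without overlap. Foxo1, which insulin signalling keeps out of the nucleus and which drives gluconeogenic genes in liver, had 0.28 ± 0.16 (adjusted p = 0.458) without overlap, but -0.02 when probe sets of the _x_at and _s_at kinds were left out. It was 0.12 without Cre plus C. Foxn3 had -0.13 ± 0.09 and Foxj3 0.16 ± 0.12, and without Cre plus C they had -0.08 and 0.07. The cell cycle gene Foxm1 missed the filter, with a highest value of 3.03 in Cre plus and 2.94 in Cre minus. It was chosen after its values were seen.

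Of the other cut and Prospero homeobox genes, Cux1 had -0.07 ± 0.06 and Cux2, which lay just over the filter, 0.00 ± 0.05, and neither passed. Onecut3 and Prox2 missed the filter, each with the same highest value in Cre plus and in Cre minus at 2 decimals, 2.68 for Onecut3 and 2.73 for Prox2. Groucho/TLE proteins include corepressors that FOXA factors can recruit, and 4 of the 6 genes of this family on the array were tested. Tle3 was at 6.14, 6.50 and 6.65 in the Cre plus livers, against 5.47, 5.57 and 5.63 in the Cre minus livers. Every Cre plus value was higher than every Cre minus value, with a log2 fold change of 0.88 ± 0.14 and an adjusted p = 0.0995, which did not pass. Under the stricter filter (log2 over 6), which tests fewer genes, its adjusted p was 0.0486. Only its Cre plus values were over 6, so Tle3 met that filter through the group where it was higher. That adjusted p therefore lends no support to a difference. Tle1 (-0.35 ± 0.19), Tle5 (-0.17 ± 0.17) and Tle4 (-0.06 ± 0.08) overlapped between genotypes. Single arrays moved them, Tle1 to -0.18 without Cre minus A or -0.54 without Cre minus C, and Tle5 to -0.01 without Cre plus A or -0.29 without Cre plus B.

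The other liver-enriched transcription factors had 34 of 37 genes on the array tested, 12 with higher and 22 with lower values, a median of -0.13 and 0 past the threshold. Before adjustment, 4 higher and 6 lower genes had a p under 0.05, where 6.62% of all genes were higher and 8.21% lower. The median was -0.05 with no filter, -0.05 without Cre plus C and -0.04 without Cre minus A. Cebpb, a C/EBP factor of the acute phase response, was at 11.31, 11.24 and 11.38 in the Cre plus livers, against 10.77, 10.75 and 10.88 in the Cre minus livers, a log2 fold change of 0.51 ± 0.07 (adjusted p = 0.0785). Nr1i3, the nuclear receptor CAR that controls drug-metabolizing enzymes, was at 8.84, 8.88 and 8.57 in the Cre plus livers, against 9.69, 9.36 and 9.52 in the Cre minus livers, a log2 fold change of -0.76 ± 0.12 (adjusted p = 0.0995). Neither gene overlapped between genotypes, and both passed under the stricter filter, at adjusted p of 0.0464 and 0.04996. Xbp1, a factor of the secretory pathway, had 0.49 ± 0.09 and Cebpd 0.93 ± 0.23 (adjusted p of 0.120 and 0.191). Nr5a2, a nuclear receptor that Prox1 is known to repress, had -0.01 ± 0.10, of either sign under the alternatives, and was chosen after its values were seen.

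Genes described as FOXA or Onecut targets in liver mostly had lower values in Cre plus, and 0 passed. Of 26 such genes on the array 24 were tested, with 5 higher and 19 lower values, where 53.5% of all genes tested were lower. Their median was -0.18, against -0.01 over all genes tested. It lay between -0.24 and -0.16 over the 10 alternatives that changed the scaling, the filter or the arrays. Before adjustment, 10 lower and 0 higher genes had a p under 0.05, where 8.21% of all genes were lower, and 11 had lower values without overlap, where 11.9% of all genes did. Many of these genes also answer to other regulators, and some were known to be lower from earlier results of these data.

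Slc2a2, the glucose transporter of the hepatocyte membrane, was at 9.22, 9.13 and 9.84 in the Cre plus livers, against 10.97, 10.67 and 10.89 in the Cre minus livers. Its log2 fold change was -1.45 ± 0.20 (adjusted p = 0.0866), and under the stricter filter the adjusted p was 0.0322. The bile acid uptake transporter Slc10a1 was at 10.00, 10.34 and 10.81 in the Cre plus livers, against 11.44, 11.07 and 11.11 in the Cre minus livers, a log2 fold change of -0.82 ± 0.22 (adjusted p = 0.212). Abcb11, the bile salt export pump, was at 8.54, 9.15 and 9.08 in the Cre plus livers, against 9.76, 9.34 and 10.10 in the Cre minus livers, a log2 fold change of -0.81 ± 0.25 (adjusted p = 0.244). None of these 3 transporters overlapped between genotypes.

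The acyl-CoA dehydrogenase Acadm (-0.46 ± 0.07), the glucose-6-phosphatase G6pc (-0.51 ± 0.15) and the canalicular exporter Abcc2 (-0.44 ± 0.15) also had lower values without overlap, with adjusted p of 0.0995, 0.226 and 0.278. Cyp7a1, the rate-limiting enzyme of bile acid synthesis and a gene that Prox1 represses, missed the filter, with a highest value of 2.83 in Cre plus and 3.04 in Cre minus, and was chosen after its values were seen. Ttr and Alb, both bound by FOXA factors in liver, differed by -0.05 ± 0.05 and -0.04 ± 0.06 at levels near the top of the scale, and were also chosen after their values were seen. Over the alternatives Ttr lay between -0.17 and -0.04 and Alb between -0.08 and -0.02.

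**Figure D4:**
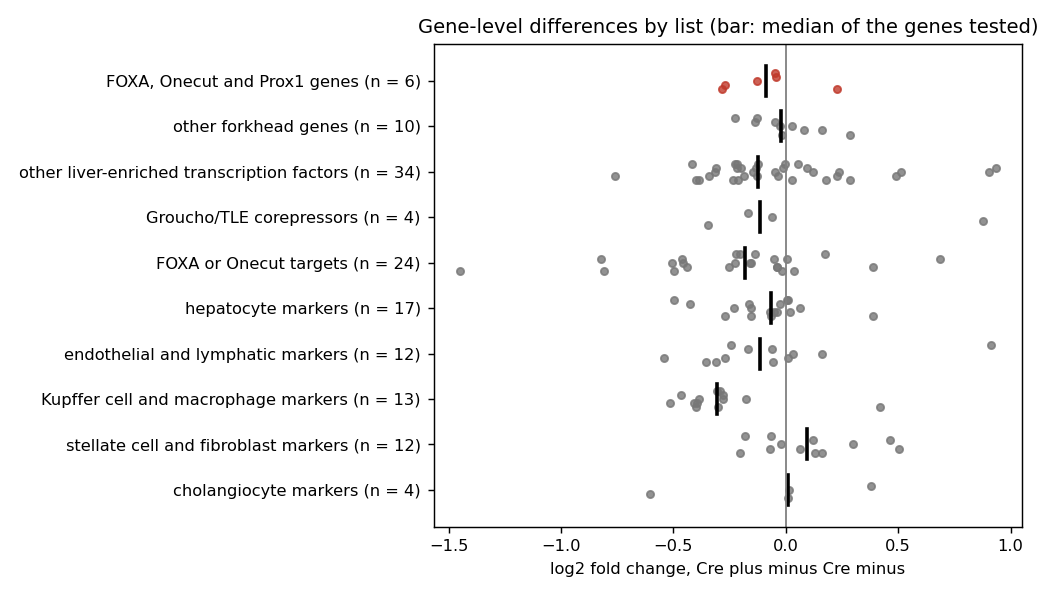
Log2 fold change, Cre plus minus Cre minus (horizontal axis), of each gene tested in each list, with a bar at the list's median. The 6 members lie between -0.29 and 0.23, inside the range of the other liver-enriched transcription factors and of the target genes.

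Markers of other liver cells were read beside these values, because FOXA and Onecut genes are also active in bile ducts and Prox1 in lymphatic vessels. In whole-liver RNA, fewer cells of a type and less RNA per cell cannot be told apart. Of 15 cholangiocyte markers on the array 4 were tested, with a mean log2 level of 5.84 to 6.08 in Cre plus and 5.75 to 6.23 in Cre minus and a median difference of 0.01, which was -0.0050 with no filter. Of these 4 markers 3 were higher and 1 lower. Sox9 had the smallest p among the 4 (0.38 ± 0.23, adjusted p = 0.495), and 0.13 without Cre plus A. The lower marker, Pkhd1, had the largest difference of the 4 (-0.60 ± 0.41, adjusted p = 0.543) and was chosen after its values were seen. Its Cre minus values were 4.16, 4.46 and 5.77. The defining bile duct keratins Krt7 and Krt19 were near background, at no more than 2.44 and 2.39 in Cre plus and 2.46 and 2.65 in Cre minus. Among 16 endothelial and lymphatic markers 12 were tested, 4 higher and 8 lower, with a mean log2 level of 7.02 to 7.19 in Cre plus and 7.16 to 7.21 in Cre minus. The smallest p among them was that of Fcgr2b, an Fc receptor of sinusoidal endothelium (-0.54 ± 0.09, adjusted p = 0.110), and the list's median of -0.11 moved to -0.22 when Cre plus B was left out and to -0.06 when Cre plus A was.

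The markers that lymphatic vessels share were read one by one beside Prox1, chosen after their values were seen. Pdpn missed the filter, at no more than 3.84 in Cre plus and 3.96 in Cre minus. Lyve1, also made by sinusoidal endothelium, was at 8.07, 6.04 and 7.02 in the Cre plus livers, against 5.69, 6.79 and 5.93 in the Cre minus livers. The groups overlapped, with Cre plus A the highest, and the log2 fold change of 0.91 ± 0.56 (adjusted p = 0.499) was the highest of the list. This difference had the sign of Prox1. Cre plus B was the highest array on the brightest and the second Prox1 probe set, and the lowest Cre plus array for Lyve1. Cre plus A was the highest array on the third Prox1 probe set, as for Lyve1. Of the 12 endothelial and lymphatic markers tested 8 were lower, 4 of them without overlap, where 11.9% of all genes tested were lower without overlap. The Lyve1 difference was 0.40 when Cre plus A was left out and 1.41 when Cre plus B was. Flt4 had 0.03 ± 0.18, of either sign when single arrays were left out. Reln, which is also in the stellate cell and fibroblast list, had 0.16 ± 0.15, which became 0.02 without Cre minus B. The part of lymphatic or sinusoidal cells in the Prox1 values was not tested.

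Hepatocyte markers had 5 higher and 12 lower values among 17 tested, with a median of -0.06 and a mean log2 level of 13.48 to 13.65 in Cre plus and 13.63 to 13.69 in Cre minus. Before adjustment, 3 lower and 0 higher had limma's p under 0.05, where 8.21% of all genes were lower. Without overlap 5 were lower and 1 higher, where 11.9% of all genes were lower and 9.21% higher. Some of these markers, Alb and Ttr among them, are also in the list of FOXA or Onecut targets. Ahsg, a secreted liver glycoprotein, had the smallest p (-0.27 ± 0.08, adjusted p = 0.238). Of 13 Kupffer cell and macrophage markers tested, 12 were lower and 1 higher, where 53.5% of all genes tested were lower. Their median was -0.31, with a mean log2 level of 7.42 to 7.64 in Cre plus and 7.76 to 7.88 in Cre minus. Before adjustment, 7 lower and 1 higher had limma's p under 0.05, where 8.21% of all genes were lower and 6.62% higher. Without overlap 7 were lower and 0 higher, where 11.9% of all genes were lower. Tyrobp, a signalling adaptor of myeloid cells, had the smallest p (-0.41 ± 0.07, adjusted p = 0.105). Stellate cell and fibroblast markers had 7 higher and 5 lower values among 12, with a median of 0.09 and a mean log2 level of 6.65 to 6.89 in Cre plus and 6.63 to 6.73 in Cre minus. That median turned to -0.0031 without Cre plus C and was 0.02 without Cre plus A, and Rgs5, a pericyte gene, had the smallest p (0.50 ± 0.11, adjusted p = 0.164). Over these 5 marker lists 0 genes passed. The part of these cells in the values of the members was not tested.

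The labels were checked with Socs3, the targeted gene, which was at 7.44, 6.69 and 7.47 in the Cre plus livers, against 9.09, 9.30 and 9.24 in the Cre minus livers on its brightest probe set. Its log2 fold change was -2.01 ± 0.22 with an adjusted p = 0.0732 over all genes, which did not pass, while under the stricter filter it was 0.0321. Array medians lay between 2.98 and 3.02, and the highest value in the table was 15.7.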

How the data were processed

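The table holds deposited log2 values (the base judged from their range), made by the authors with GCRMA, per the submitters' processing notes. GCRMA removes a background estimated from probe sequence, normalizes arrays and summarises each probe set. Its version and the annotation used are not given in the sources used here. RNA (2 ug) was hybridized to Mouse Genome 430 2.0 arrays, per the labels' protocols. The labels do not say that each array is a separate mouse, so p-values reflect only how far these samples lie apart, a spread that may be technical. Arrays have no read depth, and their number limits the precision.

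After 64 control probe sets were left out, 34945 probe sets had 1 symbol in the platform annotation, 932 had several and 9160 none here. A log2 value over 4 in 3 or more arrays was required, which kept 15563 probe sets, giving 8554 genes, each read from its brightest kept probe set. The genotypes were compared by limma 3.58.1 in R 4.3.3 (lmFit, eBayes, two-sided, no block, Benjamini-Hochberg adjustment over all genes, and over all kept probe sets for single probe sets). Every adjusted p is limma's. On 20 simulated sets of the 8554 genes with 200 changed, it recovered 42.5%, 79.1% and 96.4% of genes changed by 0.5, 1 and 2 on the log2 scale, and 5.35% of its calls were false. Differences as small as those of the members were not simulated. In the data 2 genes passed, and Socs3 at -2.01 did not. The recovered shares hold for 200 changed genes and may not hold for this comparison.

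The members and lists were chosen with earlier results of these data known. By rule the genes named are the members, up to 4 with the smallest p in each list (up to 6 among targets; for marker lists 1 is given), the 3 most correlated with each member, and Socs3. Foxm1, Onecut3, Prox2, Nr5a2, Cyp7a1, Ttr, Alb, Krt7, Krt19, Pkhd1, Pdpn, Lyve1, Flt4 and Reln stand outside it, picked with their values known. The 15 alternatives changed the scaling (equal array medians, or quantiles), the filter (none, or log2 over 6), the fit (an intensity trend with robust estimation, a replicate block, or array weights), the reading of a gene (the mean of its kept probe sets, or no _x_at or _s_at probe set) and the arrays (each left out in turn).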

Additional observations from a re-analysis of the deposited data

How the results depend on the processing

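No member gene or probe set passed an adjusted p under 0.05 under any of the 15 alternatives, the smallest being 0.165 (Foxa2 without Cre plus B). Across them Foxa1 stayed between -0.37 and -0.20, Foxa2 between -0.37 and -0.15 and Prox1 between 0.16 and 0.31. Leaving out 1 array turned the sign of the other 3 genes, in ranges of -0.22 to 0.017 (Foxa3), -0.33 to 0.17 (Onecut1, and -0.12 to 0.077 on its other probe set) and -0.15 to 0.067 (Onecut2, and -0.25 to 0.053 on its second probe set). Over all genes 2 passed (2 probe sets); this became 0 genes and 0 probe sets with no filter, 56 genes and 55 probe sets under the stricter filter, and 0 to 13 genes and 0 to 23 probe sets with an array left out, lowest without any 1 Cre minus array and highest without Cre plus B. With the replicate block 0 genes and 0 probe sets passed, and Foxa1 had an adjusted p = 0.382. Arrays that share a letter did not deviate together (correlations of their deviations from the group means of -0.15 for A, -0.10 for B and 0.02 for C), so the letters were not taken to pair them. Without Cre plus A, B or C, an alternative added after the data were seen, no further member lost its overlap, while leaving out an array cannot restore one. In each of these settings 3 of the 6 members did not overlap. Of all genes tested, 29.1%, 38.2% and 32.3% did not overlap without Cre plus A, B and C, against 21.2% with every array. Cre minus arrays were not left out for this count. Cux2 turned to 0.0062 with equal array medians and ranged from -0.0057 to 0.0027 with an array left out, Tle4 ranged from -0.13 to 0.0035 with an array left out, and without _x_at and _s_at probe sets Foxo1 was -0.020 and Cux1 0.015. The median of the forkhead list turned to 0.05 under the stricter filter, 0.02 without Cre plus C and 0.01 without Cre minus A. Flt4 ranged from -0.11 to 0.21 and Nr5a2 from -0.11 to 0.051 with an array left out, and Nr5a2 was 0.0034 with equal array medians and 0.0045 with quantiles. Filters change how many genes are tested; other causes of these shifts were not tested.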
